A study of Drosophila melanogaster with 12 samples.

Results

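Lipids travel through a fly in lipoprotein particles, and 8 genes of that system and of the storage proteins were followed across 12 arrays of fly head RNA: apolpp, Apoltp, Mtp, LpR1, LpR2, Lsp2, Lsp1beta and Lsp1gamma. A gene's probe sets were taken where the platform's probe table pairs them with that gene and no other. This gave 7 of the 18952 probe sets on the array, for 6 of the 8 genes, out of 11982 genes named in this way over the whole array: 2 for LpR1 and 1 each for apolpp, Apoltp, Mtp, LpR2 and Lsp2. Lsp1beta and Lsp1gamma had no such probe set and were not analysed here. All 7 probe sets passed the filter on dim signal, which kept 11261 probe sets with a mean level above an intensity of 8.05.

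Each array measured total RNA of whole heads, and the 4 groups of 3 arrays each were conditioned flies at 24 h, non-conditioned flies at 24 h, conditioned flies at 0 h and non-conditioned flies at 0 h. The treatment is labelled as a behavioural stimulus, and all samples carry the letters OR, which the labels do not expand. No label gives the sex or age of the flies or the kind of conditioning, and no genotype or allele is named. A few conditioned arrays are labelled as biological duplicates and the others are not, and the p-values therefore reflect array-to-array spread that may be technical in part.

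In insects the fat body releases lipophorin, a reusable lipid shuttle whose protein core is made from the apolpp product by cleavage. In Drosophila, Mtp helps to load the apolpp product with lipid inside the cell, and the particle built on Apoltp moves lipid between lipophorin and tissues. LpR1 and LpR2 encode receptors of the LDL receptor family that bind these particles, and Lsp2 encodes a hexamerin, a protein that fat body secretes and stores as a source of amino acids. By the RefSeq annotation of Release 6 plus ISO1 MT, apolpp lies on chromosome 4, Apoltp and Mtp on arm 2L, Lsp2 on arm 3L and both receptor genes on arm 3R. A single annotated gene, lncRNA:CR46102, starts between LpR1 and LpR2.

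Over the series, within-group correlations of log2 values ran from 0.991 to 0.995. Photoreceptor markers (5 of 8 with a probe set) and neuron markers (7 of 8) all had mean levels of at least 10. Yolk protein, accessory gland and muscle signals differed between arrays, and summed glia and neuron levels differed between times in conditioned heads. The yolk protein gene Yp1, typical of females, had intensities of 5030 and 6650 in replicates 1 and 2 of the conditioned 24 h group and 4530 in replicate 3 of the conditioned 0 h group, against at most 20.8 on the other arrays. Yp2 and Yp3 were highest on the same 3 arrays. The summed level of 13 male accessory gland genes was 1160 in replicate 3 of the non-conditioned 0 h group and at most 92.2 on the others. Summed levels of 6 muscle marker genes were 4160 to 4270 in conditioned 24 h heads and 4320 to 4410 in non-conditioned 24 h heads, against 4630 to 4850 in conditioned 0 h heads and 4530 to 5200 in non-conditioned 0 h heads. Of these 6, 2 were called lower at 24 h in conditioned flies (Mlc2 and up) and 3 in non-conditioned flies (Mlc2, up and Prm). In non-conditioned flies 1 of the 3, Mlc2, was left without replicate 1 or 3 of the 0 h group or replicate 3 of the 24 h group (adjusted p of up and Prm from 0.0620 to 0.139). In conditioned flies Mlc2 was lost without any 1 of the 6 conditioned arrays (adjusted p from 0.0667 to 0.137). Their part in the differences of the members with time was not tested. Of 7 neuron and 5 photoreceptor markers 0 were called between times by limma in either arm, and 1 of 7 glia markers, wrapper, was called higher in each arm. Its call was lost under 14 of 24 alternatives in conditioned flies and 16 of 24 in non-conditioned flies. Summed glia levels were lower at 24 h than at 0 h in conditioned heads (8170 to 8710 against 8760 to 9090). In non-conditioned heads they overlapped (8180 to 8920 against 8870 to 9270). Summed neuron levels were higher at 24 h in conditioned heads (7800 to 8660 against 7360 to 7760). In non-conditioned heads they overlapped (7710 to 8000 against 7700 to 9270). The part of these sums in the member changes was not tested.

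The member calls came from the comparisons of times. Between 24 h and 0 h in non-conditioned flies, 3 of 7 member probe sets passed a limma adjusted p of 0.05, all of them higher: Apoltp, Mtp and Lsp2. Over all tested probe sets, 5.22% passed in that comparison and 3.15% passed as higher. The groups of the same 3 members did not overlap, against 9.97% of all probe sets with higher values at 24 h. Between the same times in conditioned flies, Lsp2 alone of the 7 passed, higher at 24 h, where 4.67% of all probe sets passed and 2.7% passed as higher. In limma, 0 members passed between conditioned and non-conditioned flies at 0 h (0.577% of all probe sets), at 24 h (0%) or for the difference between these effects (0%). At an unadjusted p under 0.05 the members numbered 3, 0 and 2, against 12.2%, 4.33% and 7.19% of all probe sets. Because these are bulk heads, fewer cells of a type and less RNA per cell cannot be told apart in any of these differences.

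**Figure D1:**
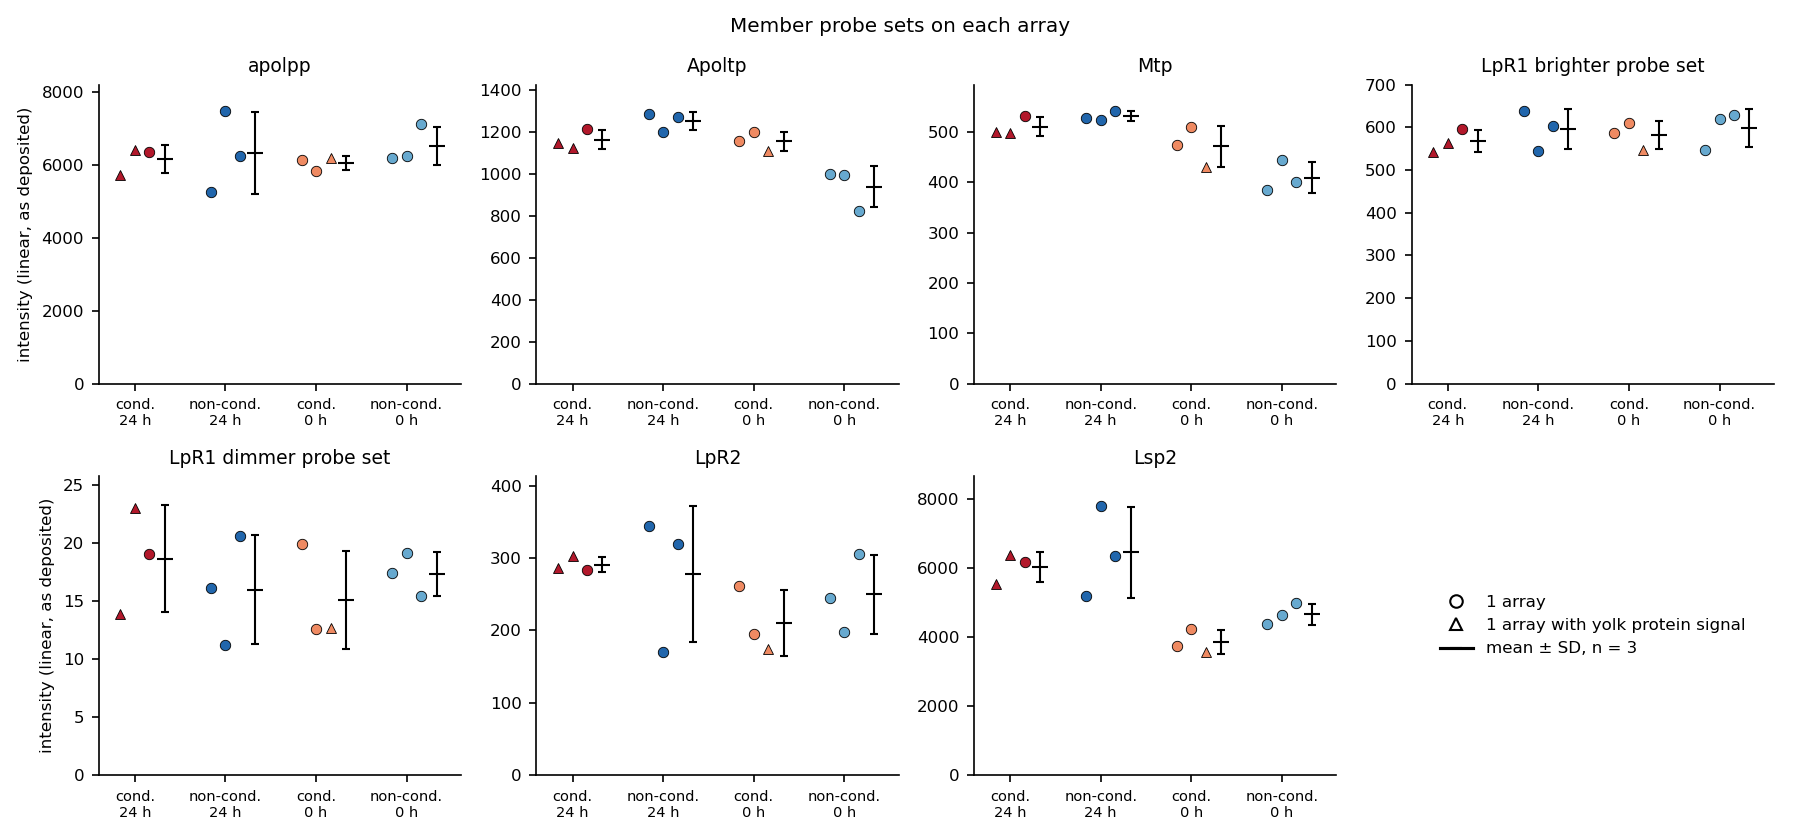
Intensity of each member probe set on every array (vertical axis, linear, from 0), with the 4 groups side by side and the mean ± SD (n = 3) at the right of each group; triangles are the 3 arrays with yolk protein signal. Lsp2 is higher in both 24 h groups, Apoltp is lowest on the 3 non-conditioned 0 h arrays, and apolpp and LpR1 show no separated groups between times.

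The carrier protein of lipophorin is encoded by apolpp, which had intensities of 5722, 6397 and 6364 in conditioned 24 h heads and 5245, 7485 and 6242 in non-conditioned 24 h heads. At 0 h it had 6122, 5829 and 6181 in conditioned heads and 6187, 6236 and 7116 in non-conditioned heads. The 24 h values spanned the 0 h values in both arms, and at 0 h all conditioned arrays lay just below all non-conditioned ones, as in 7.71% of all probe sets. Means were 6161 ± 381 in conditioned 24 h heads and 6324 ± 1122 in non-conditioned 24 h heads, against 6044 ± 188 in conditioned 0 h heads and 6513 ± 523 in non-conditioned 0 h heads (SD, n = 3 each). The log2 change between 24 h and 0 h was -0.05 in non-conditioned flies (95% interval -0.28 to 0.17, adjusted p = 0.844) and 0.03 in conditioned flies (-0.20 to 0.25, adjusted p = 0.939). Conditioned minus non-conditioned was -0.10 at 0 h (-0.33 to 0.12, adjusted p = 0.750) and -0.02 at 24 h (adjusted p = 0.999). No comparison of apolpp passed the test, and a p above the threshold does not show equal levels.

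The spread of apolpp between replicates was wide for so bright a probe set. Its within-group SD was 0.149 on the log2 scale, against a median of 0.0855 over tested probe sets with a mean intensity over 100. The arrays differed in how bright their brightest features were: the mean of the 100 brightest probe sets ran from 4562 in replicate 1 of the non-conditioned 24 h group to 6583 in replicate 3 of the non-conditioned 0 h group. Over the 12 arrays apolpp followed this mean with r = 0.901, and with r = 0.979 after group means were taken out. apolpp was itself among the 100 brightest on all 12 arrays, and the arrays share the authors' scaling. After quantile normalization, which gives each array the same distribution, the within-group SD of apolpp was 0.0313. Under that setting apolpp passed between 24 h and 0 h in conditioned flies, with a log2 change of 0.12 (adjusted p = 0.0445), and its change in non-conditioned flies turned to 0.078. That step sets each value by its rank on the array. The part of this in the lower spread and adjusted p of apolpp was not tested.

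Apoltp, the gene of the lipid transfer particle, had the lowest adjusted p of the members. It had intensities of 1285, 1201 and 1272 in non-conditioned 24 h heads, against 1001, 993 and 826 in non-conditioned 0 h heads. Conditioned heads had 1149.9, 1125 and 1215 at 24 h, against 1156, 1199.5 and 1111 at 0 h. All 3 non-conditioned 0 h arrays lay below every other array, and the 2 conditioned groups overlapped. The share of all probe sets with the non-conditioned 0 h arrays lowest in this way was not counted. Means were 1253 ± 44.9 in non-conditioned 24 h heads and 939.7 ± 98.9 in non-conditioned 0 h heads, and 1163 ± 46.2 in conditioned 24 h heads and 1155 ± 44.1 in conditioned 0 h heads (SD, n = 3 each). In non-conditioned flies Apoltp was 1.33-fold higher at 24 h (log2 change 0.41 ± 0.07 SE, 95% interval 0.27 to 0.56, adjusted p = 0.00135). In conditioned flies the change was 0.01 (-0.13 to 0.15, adjusted p = 0.967).

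At 0 h Apoltp was 1.23-fold higher in conditioned than in non-conditioned heads, with groups that did not overlap, but it missed the threshold (log2 change 0.30, interval 0.15 to 0.44, adjusted p = 0.0612). Of all probe sets tested, 9.84% had non-overlapping groups in that direction. The comparison uses the same non-conditioned 0 h arrays as the change with time, so the values are not independent of each other. At 24 h the change was -0.11 (-0.25 to 0.04, adjusted p = 0.999). The direct test of the difference between the effect at 24 h and that at 0 h gave -0.40 ± 0.10 SE for Apoltp (unadjusted p = 0.000689, adjusted p = 0.199), so a different response in the 2 arms was not established. The 0 h difference crossed the threshold under 6 of 24 other settings, among them quantile normalization (adjusted p = 0.0397) and a fit of the 2 groups alone (adjusted p = 0.0357). Leaving out replicate 1 or replicate 2 of the non-conditioned 24 h group, which only alters the estimated spread, also did so (adjusted p = 0.0413 and 0.0433). Replicate 3 of the non-conditioned 0 h group, the array with accessory gland signal, was the lowest for Apoltp, and without it the 0 h difference was 0.20 (adjusted p = 0.241).

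Mtp, which works in particle assembly, changed in the same comparison. Its intensities were 527, 524 and 543 in non-conditioned 24 h heads, against 384, 444 and 401 in non-conditioned 0 h heads. Conditioned heads had 500.3, 499 and 532 at 24 h, against 474, 510.4 and 430.5 at 0 h. The non-conditioned groups were separated by a clear gap, whereas 1 conditioned 0 h array lay within the range of the conditioned 24 h arrays. Mtp was 1.29-fold higher at 24 h in non-conditioned flies (log2 change 0.36 ± 0.07 SE, interval 0.22 to 0.51, adjusted p = 0.00333), with means of 531 ± 9.85 at 24 h and 409.8 ± 30.7 at 0 h (SD, n = 3 each). In conditioned flies the change was 0.11 (-0.03 to 0.25, adjusted p = 0.412), with means of 511 ± 19.1 at 24 h and 472 ± 40.03 at 0 h. Conditioned minus non-conditioned gave 0.19 at 0 h (0.05 to 0.34, adjusted p = 0.224) and -0.06 at 24 h (adjusted p = 0.999). The difference between these effects was -0.25 (-0.45 to -0.05, adjusted p = 0.540).

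Apoltp and Mtp had the same order of group means: non-conditioned 24 h, conditioned 24 h, conditioned 0 h and non-conditioned 0 h. For Apoltp, conditioned 0 h and non-conditioned 0 h arrays did not overlap and the other neighbours in this order did; for Mtp all neighbours overlapped. Across the 12 arrays their log2 values correlated with r = 0.86 and rho = 0.923, and with r = 0.426 after group means were taken out. Both genes were read on the same arrays and share their scaling and groups, so this is a description with no test. Both calls in non-conditioned flies held under all 24 alternative settings, with adjusted p from 0.000339 to 0.0439 for Apoltp and from 0.00126 to 0.0453 for Mtp. Without replicate 3 of the non-conditioned 0 h group the changes were 0.32 for Apoltp (adjusted p = 0.0112) and 0.36 for Mtp (adjusted p = 0.0207). Among the non-conditioned arrays with # in their titles, 2 per group, the difference in mean log2 value was 0.31 for Apoltp and 0.34 for Mtp. Between the non-conditioned arrays without #, 1 per group, it was 0.61 and 0.42.

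**Figure D2:**
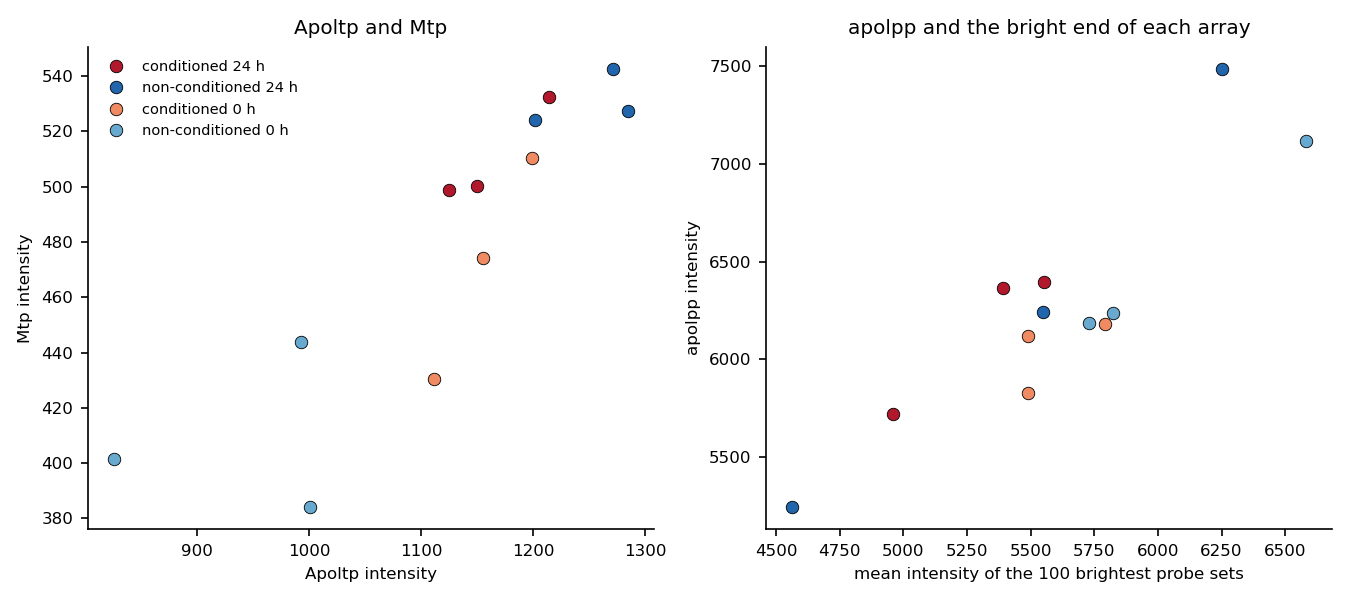
Left, Mtp intensity against Apoltp intensity on the 12 arrays; right, apolpp intensity against the mean intensity of the 100 brightest probe sets of the same array, with groups by colour and axes that do not start at 0. Non-conditioned 0 h arrays sit at the lower left for Apoltp and Mtp (r = 0.86), and apolpp follows the bright end of its array (r = 0.901).

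Of the 7 probe sets, the brighter one of the receptor gene LpR1 had the narrowest range over the 12 arrays. It had 543, 564 and 595 in conditioned 24 h heads, 639, 545 and 602 in non-conditioned 24 h heads, 588, 611 and 546 in conditioned 0 h heads and 547, 619 and 629 in non-conditioned 0 h heads. The highest of the 12 values was 1.18 times the lowest, and all groups overlapped. Means were 568 ± 26.3 in conditioned 24 h heads and 595 ± 47.1 in non-conditioned 24 h heads, against 582 ± 33.2 in conditioned 0 h heads and 598 ± 45.0 in non-conditioned 0 h heads (SD, n = 3 each). The log2 change between 24 h and 0 h was -0.01 in non-conditioned flies (-0.16 to 0.14, adjusted p = 0.974) and -0.03 in conditioned flies (adjusted p = 0.867). Conditioned minus non-conditioned was -0.04 at 0 h (adjusted p = 0.870) and -0.07 at 24 h (adjusted p = 0.999). The dimmer LpR1 probe set lay between 11.2 and 23.0 on all arrays, below the offset of 16 on some of them, and passed in no comparison (lowest adjusted p = 0.664). At that level its fold changes are understated.

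LpR2, the other receptor gene, had a wider relative range than the brighter LpR1 probe set, with a highest value 2.02 times the lowest; for the dimmer LpR1 probe set this ratio was 2.06. LpR2 had 286, 302 and 284 in conditioned 24 h heads, against 262, 194 and 174 in conditioned 0 h heads. In non-conditioned heads it had 344, 170.1 and 319.8 at 24 h, against 245, 198 and 306 at 0 h. The conditioned groups did not overlap, while the lowest of all 12 values was a non-conditioned 24 h array. Its within-group SD of 0.333 was the widest of the members, against a median of 0.113 over all probe sets tested. LpR2 was 1.37-fold higher at 24 h in conditioned flies without passing the test, with means of 291 ± 10.1 at 24 h and 210.2 ± 45.8 at 0 h (SD, n = 3 each, log2 change 0.46 ± 0.20 SE, interval 0.04 to 0.88, adjusted p = 0.228), a separation shared in that direction by 13.2% of all probe sets. In non-conditioned heads its means were 278 ± 94.3 at 24 h and 249.7 ± 54.0 at 0 h, and the change was 0.11 (-0.31 to 0.53, adjusted p = 0.831).

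Conditioned minus non-conditioned gave -0.23 for LpR2 at 0 h (adjusted p = 0.682) and 0.12 at 24 h (adjusted p = 0.999). In conditioned flies the yolk protein signal moves with the time contrast, since 2 of the 3 arrays at 24 h carry it and 1 of the 3 at 0 h. Without those 3 arrays the conditioned change was -0.10, but 1 conditioned array then remained at 24 h. Its intensity was 284, above the 262 and 194 that remained at 0 h. That array has no # in its title and the remaining 0 h arrays have one. The -0.10 therefore depends on the fit's term for the form of the title, which the non-conditioned arrays alone then set. A fit of the 2 conditioned groups alone, whose spread leaves out the scattered non-conditioned arrays, called the increase (adjusted p = 0.00732).

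Lsp2, the storage protein gene, was the member with the largest change. In conditioned heads its intensities were 5526, 6377 and 6159 at 24 h, against 3726, 4233 and 3574 at 0 h. In non-conditioned heads they were 5189, 7806 and 6348 at 24 h, against 4378, 4625 and 4986 at 0 h. Every 24 h array lay above every 0 h array, by a wide gap in conditioned heads and a narrow one in non-conditioned heads. Of all probe sets, 13.2% were separated in this direction in conditioned flies and 9.97% in non-conditioned flies. The share separated over both arms together was not counted. The means were 6021 ± 442 in conditioned 24 h heads and 6448 ± 1312 in non-conditioned 24 h heads, against 3844 ± 345 in conditioned 0 h heads and 4663 ± 306 in non-conditioned 0 h heads (SD, n = 3 each). Lsp2 was 1.56-fold higher at 24 h in conditioned flies (log2 change 0.65 ± 0.12 SE, interval 0.39 to 0.90, adjusted p = 0.00496). In non-conditioned flies it was 1.36-fold higher (0.45 ± 0.12 SE, 0.19 to 0.70, adjusted p = 0.0404).

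The order of Lsp2 means was non-conditioned 24 h, conditioned 24 h, non-conditioned 0 h and conditioned 0 h, and only the 24 h groups overlapped as neighbours. At 0 h the log2 change of conditioned against non-conditioned heads was -0.28 (-0.53 to -0.02, adjusted p = 0.359), which missed the threshold; groups were separated in that direction for 7.71% of all probe sets. At 24 h the difference was -0.08 (adjusted p = 0.999), and the difference between the effects was 0.20 (-0.16 to 0.56, adjusted p = 0.870). The conditioned call was lost when replicate 3 of the conditioned 0 h group was left out (0.57, adjusted p = 0.0501) and with only the # arrays (0.58, adjusted p = 0.137). It was also lost when the 3 arrays that carry yolk transcripts were dropped (0.56). The size changed little. Dropping them leaves 1 conditioned array at 24 h, and the change then depends on the term for the form of the title. Among the # arrays, all conditioned 24 h arrays and no conditioned 0 h array carry yolk transcripts. The non-conditioned call was close to the threshold and missed it under 14 of 24 alternatives, 9 of them with 1 array left out. Without replicate 2 of the non-conditioned 24 h group, its highest array, the change was 0.29 (adjusted p = 0.0820), and without replicate 1, its lowest array there, it was 0.60 (adjusted p = 0.00173). Quantile normalization lowered the within-group SD of Lsp2 to 0.0873, against 0.175 as deposited. The changes were then 0.73 in conditioned flies (adjusted p = 1.58e-06) and 0.57 in non-conditioned flies (adjusted p = 1.44e-05). In conditioned 24 h heads that step gave Lsp2 the same value, 6354, on every array (SD 0). The part of this replacement of values by rank in the lower spread and adjusted p of Lsp2 was not tested. Lsp2 was among the 100 brightest probe sets on 6 of the 12 arrays. Its correlation with their mean was 0.858 after group means were taken out and 0.0394 over all 12 arrays.

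**Figure D3:**
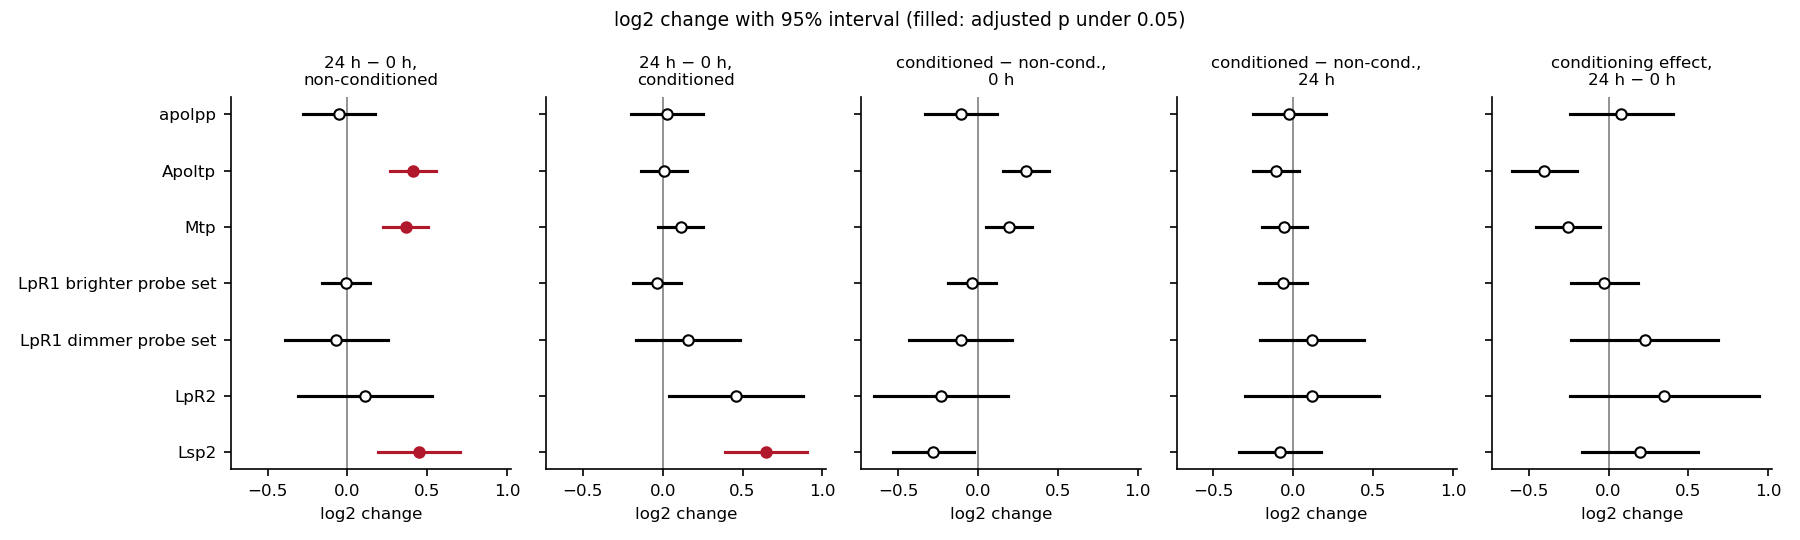
Log2 change of each member probe set in the 5 comparisons, with 95% intervals; filled points passed an adjusted p of 0.05. Filled points are Apoltp, Mtp and Lsp2 between times in non-conditioned flies (0.41, 0.36 and 0.45) and Lsp2 in conditioned flies (0.65).

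**Figure D4:**
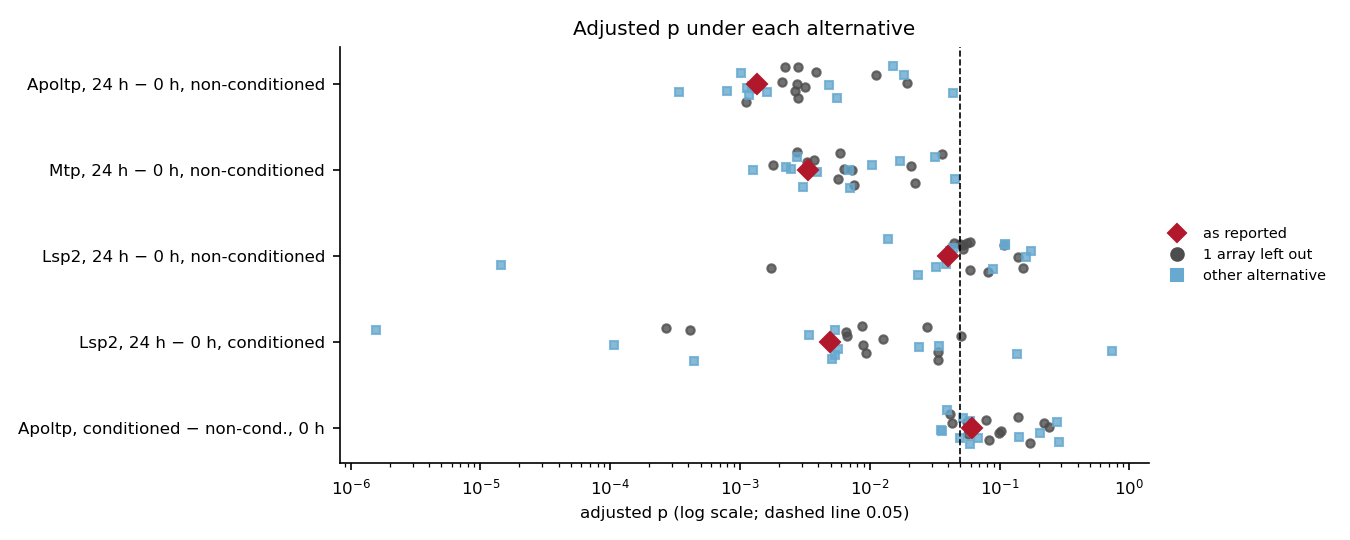
Adjusted p (log scale) of 5 member values as reported and under each alternative setting, with a dashed line at 0.05. Apoltp and Mtp stay left of the line in non-conditioned flies, while Lsp2 in both arms and Apoltp at 0 h have points on both sides of it.

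The genes around the members were counted in lists, each gene by 1 probe set. Among 6 tested genes of lipoprotein assembly and vitellogenin relatives 0 passed in any comparison, among them cv-d, a lipoprotein family gene known for its role in wing vein formation (log2 change 0.12 in non-conditioned and 0.11 in conditioned flies between times, adjusted p = 0.273 and 0.330). The probe set of Pdi, whose mammalian product works in a complex with that of Mtp, was dim, with group means from 5.66 to 9.83 (adjusted p = 0.355 between times in non-conditioned flies). Of the LDL receptor family, 2 of 8 listed genes were tested and cue was lower at 24 h in non-conditioned flies (-0.33, adjusted p = 0.0111). That call was lost without replicate 2 of the non-conditioned 0 h group (adjusted p = 0.0507) or replicate 3 of the non-conditioned 24 h group (adjusted p = 0.0592). yl, the yolk receptor gene, did not pass the filter, with group means of 3.06 or less. Of 7 tested CD36 family genes, another class of lipid receptors, ninaD was higher at 24 h in both arms, by 0.46 in conditioned flies (adjusted p = 0.00242) and by 0.33 in non-conditioned flies (adjusted p = 0.0198). ninaD is known for carotenoid uptake, and its non-conditioned call was lost without replicate 1 or 3 of either non-conditioned group (adjusted p from 0.0581 to 0.0884).

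Among 14 tested genes of sterol and lipid transfer, 1 was higher at 24 h in conditioned flies and 2 in non-conditioned flies. Npc2h, a member of the NPC2 family of sterol-binding proteins, was higher by 0.41 in conditioned flies (adjusted p = 0.000326) and by 0.45 in non-conditioned flies (adjusted p = 0.000113). Npc2g of the same family was higher by 0.30 in non-conditioned flies (adjusted p = 0.0205), and leaving out any of 4 single non-conditioned arrays raised its adjusted p to between 0.0503 and 0.163. Among 16 tested genes of lipases and lipid synthesis, 1 was higher and 1 lower at 24 h in conditioned flies, and 1 was higher and 3 lower in non-conditioned flies. mdy, which encodes an enzyme of triglyceride synthesis, was higher by 0.48 in conditioned flies (adjusted p = 0.000614) and 0.43 in non-conditioned flies (adjusted p = 0.00122). Lsd-1, a lipid droplet coat gene, was lower, with changes of -0.30 in conditioned flies (adjusted p = 0.0320) and -0.48 in non-conditioned flies (adjusted p = 0.00101).

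The triglyceride lipase gene bmm was lower in conditioned than in non-conditioned heads at 0 h (-0.55, adjusted p = 0.00658) and lower at 24 h than at 0 h in non-conditioned flies (-0.61, adjusted p = 0.000332), 2 comparisons that share the non-conditioned 0 h arrays. The 0 h call was lost under 3 of 24 alternatives. These were the fit without replicate 2 of the conditioned 0 h group (adjusted p = 0.0565), without the variance trend (0.0929) and with the # arrays alone (0.0543). FASN1, fatty acid synthase, was lower at 24 h in non-conditioned flies (-0.35, adjusted p = 0.0425) and missed the threshold under 17 of 24 alternatives. Lsd-1 in conditioned flies missed it under 9 of 24, 5 of which leave out 1 conditioned array (adjusted p from 0.0773 to 0.151). Dropping the 3 yolk arrays left 1 conditioned array at 24 h. The conditioned calls of ninaD, Npc2h, mdy, Lsd-1, PPO2 and the fat body marker AkhR were then lost. The 24 h array left has no # in its title and the conditioned 0 h arrays left have one. Changes in that fit therefore depend on its term for the form of the title. The changes themselves were 0.59 for ninaD, 0.31 for Npc2h, 0.47 for mdy, -0.41 for Lsd-1, 0.87 for PPO2 and 0.32 for AkhR, so none turned its direction.

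Hexamerins are related in sequence to the prophenoloxidases, copper enzymes of melanin formation that blood cells make. PPO1 and PPO2 were the 2 tested genes of the 6 listed relatives, and both were higher at 24 h in both arms. PPO1 averaged 416 ± 14.5 at 24 h and 215 ± 31.5 at 0 h in conditioned heads, and 377 ± 39.2 at 24 h and 198 ± 19.8 at 0 h in non-conditioned heads (SD, n = 3 each). The log2 change was 0.91 in conditioned flies (adjusted p = 8.25e-06) and 0.87 in non-conditioned flies (adjusted p = 9.79e-06). For PPO2 it was 0.81 in conditioned flies (adjusted p = 0.000324) and 0.70 in non-conditioned flies (adjusted p = 0.000873). Fbp1, related to the hexamerins and known as the receptor for their uptake in larval fat body, did not pass the filter, with group means of 2.45 or less. Lsp1alpha, a relative of Lsp2, was not analysed here.

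In the fly, Lsp2, apolpp, Apoltp and Mtp are known from fat body, so fat body markers stand beside them. Their summed level over 10 of 12 listed genes was 9860 to 10800 in conditioned 24 h heads and 9500 to 10700 in non-conditioned 24 h heads, against 9080 to 9900 in conditioned 0 h heads and 8950 to 11200 in non-conditioned 0 h heads. One of them, fit, had 1380 and 1950 in conditioned 24 h replicates 1 and 2, which carry yolk signal, and 527 in replicate 3. At 0 h it had 427 and 617 in conditioned replicates 1 and 2, and 628 in replicate 3, which carries yolk signal. The part of fit in the summed level was not tested. Among 8 tested fat body markers, 1 was higher and 1 lower at 24 h in conditioned flies, and 2 were higher and 2 lower in non-conditioned flies. The higher ones were AkhR in conditioned flies (0.41, adjusted p = 0.000589) and fit (1.35, adjusted p = 0.0199) and pug (0.28, adjusted p = 0.0164) in non-conditioned flies. The call of fit was lost without any of 3 single non-conditioned arrays (adjusted p from 0.0545 to 0.109), and pug missed the threshold under 7 of 24 alternatives. The lower ones were Lsd-1 in both arms and bmm in non-conditioned flies. The other tested markers, ppl, Obp99b and NLaz, did not pass between times (adjusted p from 0.0864 to 0.997). Fbp1 and Fbp2, larval markers, had mean levels under 10. Hemocyte markers summed to 781 to 857 in conditioned 24 h heads and 745 to 851 in non-conditioned 24 h heads. At 0 h they summed to 759 to 812 in conditioned heads and 723 to 769 in non-conditioned heads. Whether these markers follow the blood cells that make the prophenoloxidases was not tested. Of 6 hemocyte markers, 0 were called between times in conditioned flies by limma, and 2 in non-conditioned flies, in opposite directions. These were NimC1 (0.30, adjusted p = 0.00890) and Hml (-0.25, adjusted p = 0.0237), and both calls were lost without replicate 3 of the non-conditioned 0 h group (adjusted p = 0.0608 and 0.125) or of the non-conditioned 24 h group (0.0582 and 0.108). The part of either marker set in the changes with time was not tested.

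For each member, the 3 probe sets of other genes with the most similar log2 values over the 12 arrays were found. apolpp was followed most closely by fabp (r = 0.967), IM33 (0.954) and RpS26 (0.948), and r was 0.971 or more for all of these after group means were taken out. Apoltp was most like RnpS1 (r = 0.931), Mccc2 (0.928) and Fkbp14 (0.917), and Mtp most like Pepck2 (0.958), CG17292 (0.956) and alpha-Est8 (0.954). The brighter LpR1 probe set had lower best values, with sty (0.85), wts (0.84) and eIF2Bdelta (0.839). LpR2 was most like foxo (r = 0.908), CG4267 (0.884) and CG42540 (0.879), and Lsp2 most like cdi (0.931), AMPdeam (0.925) and CG9331 (0.923). These are the highest of the correlations with all other tested probe sets of 1 symbol, over 12 arrays that share groups and scaling, and they describe these arrays alone.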

How the data were processed

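The deposited table holds 1 linear intensity per probe set and array. The trimmed mean, leaving out 2% at each end, was 150 on every array, so the values had a common scale when deposited. Which program, background correction and genome build were used is not given in the sources used here, and no coordinates are reported. Values were used as deposited after adding an offset of 16 and taking log2, which understates fold changes at dim levels. Array medians ranged over 0.075 on that scale, and quantile normalization was reserved for a range above 0.2. Besides 183 control probe sets, the lower part by mean log2 value was left out, which kept the upper 60%. Gene names came from the platform table, updated through RefSeq (13544 of 13647 probe sets with 1 symbol matched); several symbols stood at 402 probe sets and none at 4720. No column was left without a sample (0 unused).

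The fit used limma (3.58.1, under R 4.3.3) over all 11261 kept probe sets. Its model held 4 group means, a term for the 2 forms of sample title (8 arrays with # and 4 without, balanced over the groups) and eBayes with a trend. The 5 comparisons were two-sided, with Benjamini-Hochberg adjustment over the whole table and a threshold of 0.05. With 7 residual degrees of freedom, the number of arrays limits the precision. The procedure was tried on simulated data with planted changes and independent noise. That simulation held no shared scaling, no effect of the title form and no arrays with yolk signal, so it does not test the calls reported here. Replicate numbers follow accession order and pair no arrays. The members, gene lists, alternatives and naming rule were chosen with earlier results of these data known. All members are named; of the other lists, genes that passed (up to 4 per list and comparison), direct relatives and the fat body and yolk markers are named. Markers of muscle, glia and hemocytes that passed lie outside that rule and were chosen after their values were seen. The 24 alternatives are 12 other settings and the removal of each of the 12 arrays.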

Additional observations from a re-analysis of the deposited data

How the results depend on the processing

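Member calls changed as follows. In conditioned flies between times, 1 member was called as reported, 2 after quantile normalization (apolpp added) and in a fit of only those groups (LpR2 added), and 0 with the # arrays alone or without the 3 arrays with yolk signal. Leaving out 1 array gave 0 to 1. Over the whole table, 526 of 11261 probe sets (4.67%) were called there as reported and 1095 in the fit of only those groups. With 1 array left out that number ran from 227 to 729. For conditioned against non-conditioned at 0 h, where 0 were called, Apoltp made it 1 under quantile normalization, median centring, array weights and a fit of only those groups, and leaving out 1 array gave 0 to 1. The 3 calls in non-conditioned flies became 2 to 3, and the other comparisons stayed at 0 members. Over the whole table, 65 probe sets (0.577%) were called at 0 h as reported, and 14 to 150 with 1 array left out. Between times in non-conditioned flies 588 (5.22%) were called as reported, and 297 to 755 with 1 array left out.

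None of the 4 called member values reversed. Of 732 alternative values for the 31 uncalled ones 40 reversed, in 19 results, to values of at most 0.21 in size on the log2 scale. With the # arrays alone, the change between times was -0.049 for Apoltp (conditioned) and 0.021 for LpR1 brighter and 0.013 for apolpp (non-conditioned). The 0 h effect of conditioning was 0.042 for LpR1 brighter and 0.033 for LpR2. Among # arrays, all conditioned 24 h arrays and no conditioned 0 h array carry yolk signal, so that signal and time cannot be told apart there. Without the 3 yolk arrays, which leaves 1 conditioned 24 h array, conditioned change with time was -0.099 for LpR2 and -0.00411 for apolpp. The effect of conditioning at 24 h was then 0.035 for Apoltp, -0.19 for LpR2 and 0.00149 for Mtp. That at 0 h was 0.028 for LpR1 brighter and 0.021 for LpR2, and the difference of effects for LpR2 was -0.21. In this setting the conditioned 0 h arrays have # in their titles and the conditioned 24 h array does not. These values therefore depend on the title term, which the non-conditioned arrays alone then set. Quantile normalization gave apolpp 0.078 between times in non-conditioned flies and 0.038 for conditioning at 24 h. Median centring gave LpR1 brighter 0.033 between times in non-conditioned flies, and array weights gave LpR1 dimmer 0.042 there and -0.012 for conditioning at 24 h.

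With each array left out in turn, conditioned change with time ran from -0.018 to 0.068 for apolpp, -0.057 to 0.044 for Apoltp and -0.10 to 0.0097 for LpR1 brighter. In non-conditioned flies it ran from -0.21 to 0.067 for apolpp, -0.068 to 0.052 for LpR1 brighter, -0.20 to 0.047 for LpR1 dimmer and -0.099 to 0.41 for LpR2. The effect of conditioning at 24 h ran from -0.15 to 0.13 for apolpp, -0.18 to 0.33 for LpR2 and -0.24 to 0.078 for Lsp2, that at 0 h from -0.10 to 0.032 for LpR1 brighter, and the difference of effects from -0.041 to 0.23 for apolpp and -0.097 to 0.035 for LpR1 brighter.

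Counts over the whole table moved more. Between times in conditioned flies, 526 probe sets were called, against 18 without the yolk arrays and 1095 in a fit of only those groups; in non-conditioned flies 588, against 246 with the # arrays alone and 799 with array weights. At 0 h, 65 were called, against 8 without the variance trend and 150 with 1 array left out. At 24 h 0 became up to 8, and for the difference of effects up to 21. Of the 29 called values of other genes, 21 missed the threshold under at least 1 alternative and 0 reversed. The cause was not tested. No paired analysis was possible because the labels give no replicate numbers shared between groups. The difference of effects needs all groups, so it has no fit of single groups, and the dimmer LpR1 probe set did not pass the stricter filter (upper 40%).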
